A study of Homo sapiens with 6 samples.

Results

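The core genes of the circadian clock were followed in sorted breast cancer cells. They were taken by symbol from the deposited gene table and comprised PER1, PER2, PER3, CRY1, CRY2, NR1D1, NR1D2, BHLHE40, CLOCK and ARNTL. These are 10 of the 15024 genes of the table, and all 10 were among the 14343 genes that passed a filter on low values. The cells were MDA-MB-231, an established triple-negative breast cancer line that is largely mesenchymal in culture. Every sample carried sgNT, a guide that targets no gene, and was kept for 14 days in medium with 10 µM forskolin, an activator of adenylyl cyclase and through it of protein kinase A, renewed every 2 days. CD44+CD104high cells, which the design text calls hybrid between epithelial and mesenchymal, were compared with CD44+CD104low cells, which it calls mesenchymal, with 3 bulk RNA-seq libraries in each group. The sample titles label the second group CD44+CD104-/low, so it takes in CD104-negative cells, and it is written CD104low here. CD104 is the integrin beta 4 subunit, encoded by ITGB4. The MLL3-mutant cells of the design text were not analysed here. Both groups received forskolin, so these libraries do not show a response to it.

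The clock is a feedback loop of transcription. CLOCK and BMAL1, the protein of ARNTL, pair and activate genes through E-box sequences, among them the PER and CRY genes, whose proteins return to the nucleus and repress that pair. NR1D1 and NR1D2 encode REV-ERB alpha and beta, nuclear receptors that repress ARNTL, and BHLHE40 encodes DEC1, a repressor that binds E-boxes. In synchronised cells these transcripts rise and fall over the day, in phases that differ between genes. The libraries hold 1 harvest per sample, so no rhythm or phase can be read from them, and the hour of harvest is not given in the sources used here.

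The promoter letters are shown because E-boxes and their relatives are the sequences through which the loop is wired. RefSeq windows of 250 bases before each annotated start (GRCh38.p14) were matched for all 10 genes, 15 windows in all, and were searched on both strands. Of these windows 3 held the E-box CACGTG, in BHLHE40, PER1 and NR1D2, a share of 20% against 6.34% of the 35116 windows of all genes. The D-box TTANGTAA stood in 2 windows, of PER3 and NR1D2, a share of 13.3% against 1.98% of all windows. The cAMP response half-site TGACG stood in 5 windows, of CRY1, CRY2 (both windows), PER2 and NR1D2, a share of 33.3% against 21.2% of all windows. The full site TGACGTCA stood in 0 of the 15, against 1.65%. The full site contains the half-site. The monomeric REV-ERB and ROR core AGGTCA stood in 3 windows, of CRY2 (both windows) and PER1, a share of 20% against 12.1%. Such a match describes letters and is not a binding site. In the stretches that follow, written 5′ to 3′ on the strand of the gene, the capitals mark the motif.
BHLHE40 E-box, chr3:4979187-4979208, plus strand: tccaaCACGTGagactcatgtg
PER1 E-box, chr17:8152561-8152588, minus strand: gcacccaggtcCACGTGcgcccgtgtgt
NR1D2 first E-box, chr3:23945955-23945982, plus strand: gcgggcggggaCACGTGaggccgctcgg
NR1D2 second E-box, chr3:23946005-23946032, plus strand: ggccgcagggaCACGTGggggcgggggc
NR1D2 D-box, chr3:23945916-23945945, plus strand: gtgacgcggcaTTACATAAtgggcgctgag
PER3 D-box, chr1:7784103-7784132, plus strand: gagcccgcgcgTTATGTAAcgcgccccggg
CRY1 cAMP response half-site, chr12:107093552-107093578, minus strand: gccgaggccgcTGACGcggcggcggcg
The E-box of BHLHE40 began 245 bases before the RefSeq start, that of PER1 173 bases before it, and those of NR1D2 155 and 105 bases before it. The half-site of CRY1 began 18 bases before its start. By GENCODE release 29, all 250 bases of the BHLHE40 and CRY1 windows lie in annotated untranslated exon sequence, and the NR1D2 window with the E-boxes holds no exon base. That NR1D2 window, those of PER1 and PER2 and the second CRY2 window also lie wholly inside the gene span. The PER3 window with the D-box and the first CRY2 window lie outside it. BHLHE40 and CRY1 are the 2 genes that differed between the sorted groups.

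CRY1 was lower and BHLHE40 higher in CD104high than in CD104low cells, and the other 8 clock genes did not pass the test. Both called genes encode repressors of the CLOCK and BMAL1 pair, and they moved in opposite directions. A gene was called at an adjusted p under 0.05 in limma, fitted over all 14343 genes on log2(value + 1). The values are normalised read counts. The 2 called of 10 are 20%, next to 23.4% of all tested genes, of which 12.1% were called higher and 11.3% lower. CRY1 and BHLHE40 were also the only 2 clock genes whose groups did not overlap, against 41.2% of all tested genes (19.9% higher and 21.3% lower). The share of clock genes called is thus close to that of all genes. Their median log2 fold change was 0.05, next to 0.01 over all tested genes. The labels do not say whether the replicates came from separate cultures or sorts, so the p-values reflect only how far these particular samples spread. In bulk samples, fewer cells of a type and less RNA per cell cannot be told apart.

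**Figure D1:**
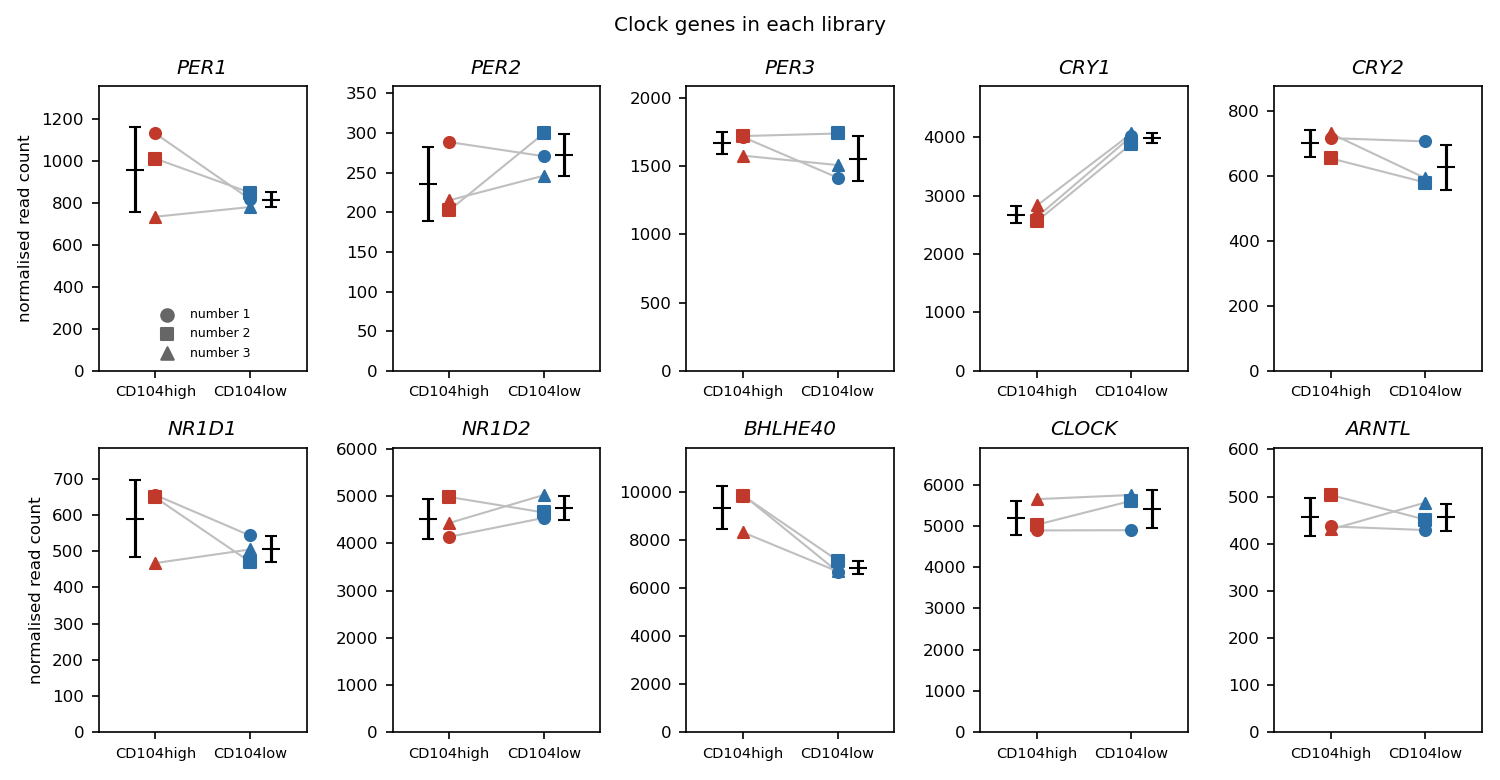
Normalised read counts (y axis, from 0) of the 10 clock genes in each library of CD104high (red, left) and CD104low cells (blue, right); marker shapes give the replicate number, grey lines join libraries of the same number, and black bars are the mean and SD of 3 libraries. CRY1 and BHLHE40 are the 2 genes whose groups stand apart in this plot.

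Gene spans are those of GENCODE release 29 on GRCh38. Among the cryptochromes, the direct repressors of the CLOCK and BMAL1 pair, CRY1 (ENSG00000008405.12, chr12:106991364-107093829, minus strand) had 2634, 2561 and 2831 normalised read counts in CD104high replicates 1 to 3, against 4015, 3886 and 4063 in CD104low replicates 1 to 3. All 3 CD104high libraries lay well below all 3 CD104low libraries, and the replicates of each group lay close together. The means were 2675 ± 139.7 in CD104high and 3988 ± 91.3 in CD104low cells (SD, n = 3 each). CRY1 was 1.49-fold lower in CD104high cells (log2 fold change -0.58, SE 0.07, 95% interval -0.73 to -0.42, adjusted p = 0.000687). Between same-numbered libraries the log2 difference was -0.61, -0.60 and -0.52, so its size differed little between the 3 pairs. By its p, CRY1 ranked 176 among the tested genes.

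CRY2 (chr11:45847118-45883248, plus strand), the second cryptochrome, did not follow CRY1. It had 715, 653 and 729.6 normalised read counts in CD104high replicates and 705, 579 and 592 in CD104low replicates. Each CD104high library was above the CD104low library of its number, and the groups overlapped. The log2 fold change was 0.16 (95% interval -0.09 to 0.42, adjusted p = 0.329). The interval excludes a fall of CRY2 as large as that of CRY1. The ratio of CRY1 to CRY2 normalised read counts was 3.68, 3.92 and 3.88 in CD104high libraries, against 5.69, 6.71 and 6.86 in CD104low libraries. The balance of the cryptochrome transcripts thus leaned less to CRY1 in every CD104high library. The log2 ratio differed by -0.74 between CD104high and CD104low, with p = 0.1 in a two-sided exact permutation test, the smallest p that 3 against 3 libraries allow, and 0.3 after adjustment over 6 ratios between related clock genes.

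BHLHE40 (ENSG00000134107.5, chr3:4979116-4985323, plus strand), the E-box repressor DEC1, had 9858, 9829.5 and 8305 normalised read counts in CD104high replicates 1 to 3, against 6675, 7138 and 6685 in CD104low replicates 1 to 3. The CD104high libraries were all above the CD104low ones, with CD104high replicate 3 the nearest to them. The means were 9331 ± 889 in CD104high and 6833 ± 264 in CD104low cells (SD, n = 3 each). BHLHE40 was 1.37-fold higher in CD104high cells (log2 fold change 0.45, SE 0.08, 95% interval 0.27 to 0.62, adjusted p = 0.00401). The log2 difference was 0.56, 0.46 and 0.31 in pairs 1 to 3, so it was positive in each pair and smallest in the third. Its relative BHLHE41, which encodes DEC2, was scarce, with 50.1 ± 15.2 normalised read counts in CD104high and 42.2 ± 8.45 in CD104low cells (SD, n = 3 each; adjusted p = 0.658).

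In the authors' deposited table, the log2 fold change was -0.58 for CRY1, with an adjusted p of 8.44e-09, and 0.45 for BHLHE40, with an adjusted p of 2.4e-05. The authors' deposited table gave no other clock gene an adjusted p under 0.05, while 29.6% of its genes with an adjusted p were under it.

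The PER genes encode the partners of the cryptochromes in the repressor complex, and PER1 is also an immediate target of CREB, the factor that protein kinase A activates. PER1 (chr17:8140472-8156506, minus strand) had 1131, 1011 and 735 normalised read counts in CD104high replicates 1 to 3, against 819, 849.8 and 781 in CD104low replicates 1 to 3. CD104high replicates 1 and 2 were above every CD104low library, and CD104high replicate 3 was the lowest of the 6. The log2 fold change was 0.21 (95% interval -0.12 to 0.54, adjusted p = 0.336). Without CD104high replicate 3, PER1 passed the test with a log2 fold change of 0.39 and an adjusted p of 0.0402, while 17.9% of all genes were called. Without both libraries numbered 3 it was 0.36, with an adjusted p of 0.051, while 22.5% of all genes were called. Among the alternatives run, PER1 was thus called only when CD104high replicate 3 alone was left out.

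PER2 (chr2:238244038-238290102, minus strand) had 288, 202 and 215 normalised read counts in CD104high replicates, against 271, 299 and 246 in CD104low replicates. CD104high replicates 2 and 3 were the lowest of the 6, while CD104high replicate 1 lay within the CD104low range. The log2 fold change was -0.22 (95% interval -0.60 to 0.16, adjusted p = 0.384). Omitting CD104high replicate 1 gave -0.38, with an adjusted p of 0.183, and omitting CD104high replicate 2 gave -0.12, with an adjusted p of 0.703. PER2 rested on the fewest reads of the 10 genes, with 204 in the lowest library, which gives a counting error of 7.0%. PER3 (chr1:7784320-7845177, plus strand) had 1711, 1719 and 1576 normalised read counts in CD104high and 1415, 1738 and 1507 in CD104low replicates. The PER3 groups overlapped, and the fold change was 0.11 on the log2 scale (95% interval -0.10 to 0.32, adjusted p = 0.449). The ratio of PER1 to PER2 was 4.11 ± 0.81 in CD104high and 3.01 ± 0.17 in CD104low cells (SD, n = 3 each), without overlap (exact permutation p = 0.1, adjusted p = 0.3). The other 4 ratios between related genes overlapped between groups.

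The REV-ERB genes gave no call. NR1D1 (chr17:40092787-40100725, minus strand) had 655, 648 and 467 normalised read counts in CD104high replicates and 543, 471 and 505 in CD104low replicates. As with PER1, CD104high replicates 1 and 2 were the highest and CD104high replicate 3 the lowest of the 6 libraries. The log2 fold change of NR1D1 was 0.21 (95% interval -0.12 to 0.53, adjusted p = 0.343). Omitting CD104high replicate 3 gave 0.37, with an adjusted p of 0.0783, and omitting CD104high replicate 1 gave 0.12, with an adjusted p of 0.665. NR1D1 shares 263 exon bases with THRA on the other strand, the strand setting of the counting is not given in the sources used here, and THRA averaged 3135 ± 271 normalised read counts in CD104high and 2793 ± 248 in CD104low cells (SD, n = 3 each; adjusted p = 0.217). Reads from the shared stretch cannot be told apart. NR1D2 (chr3:23945260-23980618, plus strand), whose window held a pair of E-boxes and a D-box, had 4136, 4978 and 4427 normalised read counts in CD104high and 4535, 4650.5 and 5019.8 in CD104low replicates. Its groups overlapped, with a log2 fold change of -0.07 (95% interval -0.26 to 0.11, adjusted p = 0.568).

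The activators differed little. CLOCK (chr4:55427903-55547138, minus strand), the basic helix-loop-helix PAS subunit whose name the clock carries, had 4889.6, 5028 and 5648 normalised read counts in CD104high and 4896, 5608 and 5748 in CD104low replicates. Each CD104high library was below the CD104low library of its number, by very little in the first pair, and the groups overlapped. Its log2 fold change was -0.06 (95% interval -0.25 to 0.13, adjusted p = 0.643). ARNTL (chr11:13276652-13387266, plus strand), which encodes BMAL1, had 437, 503 and 430.2 normalised read counts in CD104high and 429, 451 and 487 in CD104low replicates. Neither group was the higher one for ARNTL, with means of 457 ± 40.4 in CD104high and 456 ± 29.4 in CD104low cells (SD, n = 3 each; adjusted p = 0.994). The 95% interval of its log2 fold change, -0.27 to 0.27, excludes a difference as large as that of CRY1.

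**Figure D2:**
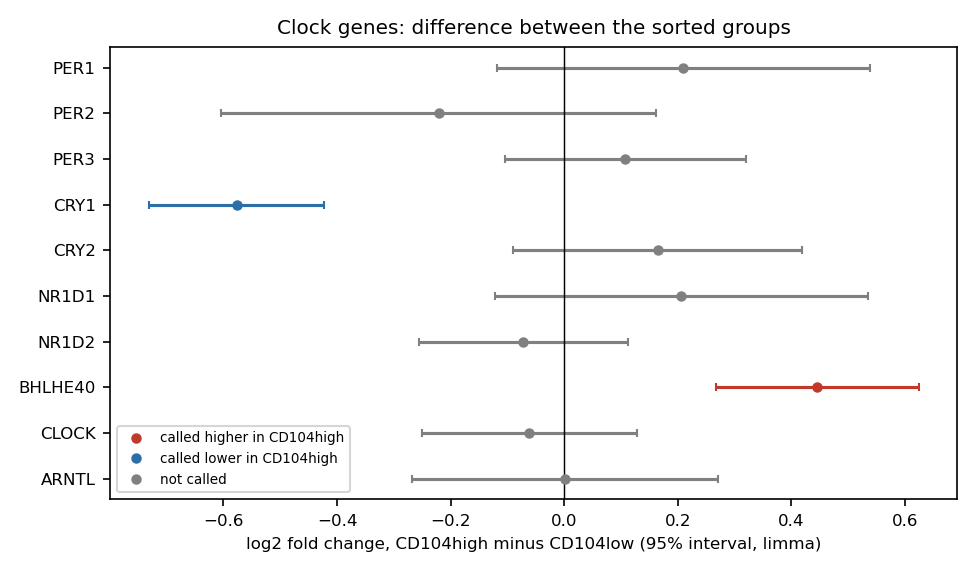
Log2 fold change of each clock gene, CD104high minus CD104low (x axis), with its 95% interval from limma; red marks a gene called higher, blue one called lower and grey one not called. The interval of CRY1 lies below 0 and that of BHLHE40 above it, while the other 8 intervals hold 0.

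Read library by library, CD104high replicate 3 was the lowest CD104high library for 5 clock genes, PER1, PER3, NR1D1, BHLHE40 and ARNTL. The third pair had the lowest difference of CD104high over CD104low for PER1, NR1D1, NR1D2, BHLHE40 and ARNTL. The difference had 1 sign in all 3 pairs for CRY1, CRY2, BHLHE40 and CLOCK only. CRY1 and BHLHE40 were called without either or both of the libraries numbered 3. Leaving out single libraries moved 4 further genes by over 1.5 times on the log2 scale without a call: CRY2 ranged from 0.11 to 0.25 (highest without CD104low replicate 1), PER3 from 0.043 to 0.19 (lowest without CD104low replicate 1), NR1D2 from -0.14 to -0.011 (lowest without CD104high replicate 2) and CLOCK from -0.13 to -0.017 (lowest without CD104low replicate 1).

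Per kb of annotated exon (GENCODE release 29), the clock genes spanned 71.1-fold in CD104high and 45.0-fold in CD104low cells between BHLHE40, the highest, and PER2, the lowest. BHLHE40 had 2432 ± 232 normalised reads per kb in CD104high and 1781 ± 68.9 in CD104low cells (SD, n = 3 each), which put it above 93.4% of genes in CD104high and 89.9% in CD104low cells. In CD104high cells NR1D2 followed with 776 normalised reads per kb, then CRY1 with 529, CLOCK with 441, NR1D1 with 213, PER3 with 206, PER1 with 137, CRY2 with 113, ARNTL with 67.9 and PER2 with 34.2. The ranges of NR1D1 and PER3 overlapped, as did those of PER1 and CRY2, and the other neighbours in this order did not overlap. In CD104low cells CRY1 stood at 788 normalised reads per kb, within the range of NR1D2 at 814, so the gap between them in CD104high cells was not present. There CLOCK followed with 461, PER3 with 192, NR1D1 with 183, PER1 with 117, CRY2 with 101, ARNTL with 67.7 and PER2 with 39.6. The ranges of PER3 and NR1D1 and of PER1 and CRY2 overlapped in CD104low cells too. ARNTL was thus well below its partner CLOCK in both groups on this scale.

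**Figure D3:**
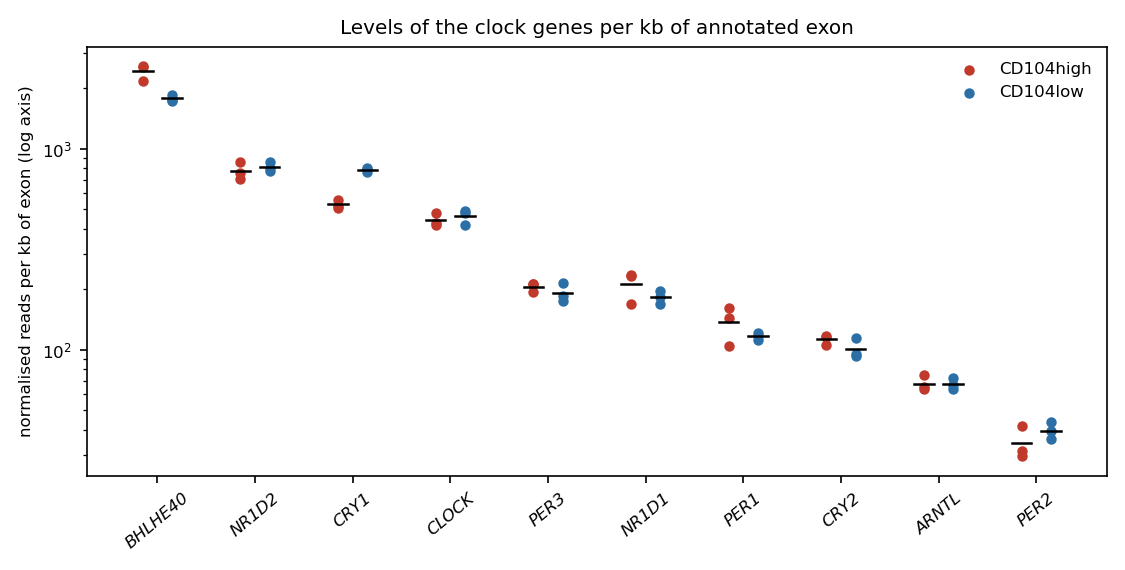
Normalised reads per kb of annotated exon (y axis, log scale) for the clock genes in each library of CD104high (red, left) and CD104low cells (blue, right), with the mean of 3 libraries as a black line. BHLHE40 is highest and PER2 lowest in both groups, and CRY1 reaches the level of NR1D2 in CD104low cells.

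The further genes of the clock were described through lists set by role, 50 genes in all, of which 46 were tested. Of these 4 were called higher and 6 lower, 21.7% together, next to the 23.4% of all tested genes. With the replicate number as a block, 9 were called higher and 8 lower, when 32.8% of all genes were called.

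DBP, a PAR-domain activator that binds the D-box and is a direct target of CLOCK and BMAL1, had the largest change of any called gene in these lists. It had 946, 976 and 773 normalised read counts in CD104high replicates, against 369, 442 and 415 in CD104low replicates. Every CD104high library was above every CD104low one by a wide margin. The means were 898 ± 109 in CD104high and 409 ± 37.1 in CD104low cells (SD, n = 3 each), a 2.20-fold higher mean in CD104high cells (log2 fold change 1.13, SE 0.13, adjusted p = 0.00046). TEF, a PAR-domain relative of DBP, averaged 895 ± 144 in CD104high and 730.3 ± 60.2 in CD104low cells (SD, n = 3 each), a log2 fold change of 0.28 with an adjusted p of 0.153. With the replicate block its adjusted p was 0.0392, and without CD104high replicate 3 it was 0.0365. NFIL3, which represses through the same D-box, had a log2 fold change of 0.21 and an adjusted p of 0.281. HLF was not analysed here.

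NPAS2, which can take the place of CLOCK beside BMAL1, averaged 3163 ± 329 normalised read counts in CD104high and 2589 ± 174 in CD104low cells (SD, n = 3 each). Its log2 fold change of 0.29 just passed the test (adjusted p = 0.0496), and it kept its call in 8 of 17 alternatives. NPAS2 was not called without CD104high replicate 1 (adjusted p = 0.174), CD104high replicate 2 (0.156), CD104low replicate 1 (0.126) or CD104low replicate 2 (0.103). ARNTL2, the relative of ARNTL, averaged 2449 ± 242 in CD104high and 2965 ± 294 in CD104low cells (SD, n = 3 each), a log2 fold change of -0.28 with an adjusted p of 0.0718, and 0.0107 with the replicate block. ARNTL2 passed without CD104high replicate 3 (adjusted p = 0.0471) or CD104low replicate 1 (0.0314). CIART, a repressor of the CLOCK and BMAL1 pair, had 59.2 ± 3.98 normalised read counts in CD104high and 59.0 ± 14.7 in CD104low cells (SD, n = 3 each; adjusted p = 0.943). RORB, an activator at the sites of the REV-ERBs, was scarce and not called, with 51.0 ± 33.3 normalised read counts in CD104high and 81.6 ± 33.6 in CD104low cells (SD, n = 3 each; adjusted p = 0.304). With the replicate block RORB was called lower (adjusted p = 0.0344). RORA was not analysed here.

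Of 16 tested kinases, phosphatases and ubiquitin enzymes that act on clock proteins, 0 were called higher and 3 lower, 18.8%, which is below the 23.4% of all tested genes that were called (11.3% lower). Their median log2 fold change was -0.15, next to 0.01 over all tested genes. For 10 of the 16 the groups did not overlap and CD104high was lower, against 21.3% of all tested genes. For 0 of the 16 CD104high was higher without overlap, against 19.9%. CSNK1E, the casein kinase that phosphorylates PER proteins, had a log2 fold change of -0.29 (adjusted p = 0.0163), and CSNK2A1, a catalytic subunit of casein kinase II, had -0.27 (adjusted p = 0.0201). USP7, a deubiquitinase that stabilises CRY1 in mouse cells, averaged 5326 ± 338 normalised read counts in CD104high and 6995 ± 462 in CD104low cells (SD, n = 3 each; log2 fold change -0.39, adjusted p = 0.00573). CSNK1D, the close relative of CSNK1E, was not called (log2 fold change 0.09, adjusted p = 0.347). Of 11 chromatin and RNA cofactors, SFPQ (-0.30, adjusted p = 0.0147) and WDR5 (-0.33, adjusted p = 0.00661), found with PER complexes in mouse cells, were called lower on the log2 scale and 0 were called higher. The share of cofactors called was 18.2%, below the 23.4% of all tested genes. USP7 and WDR5 kept their calls without any single library. CSNK1E was no longer called without CD104high replicate 1 (adjusted p = 0.0505), CD104high replicate 3 (0.0617) or CD104low replicate 2 (0.0578). CSNK2A1 lost its call without CD104high replicate 1 (0.0734), replicate 2 (0.0537) or replicate 3 (0.0548) or CD104low replicate 2 (0.0793), and SFPQ without CD104high replicate 1 (0.0599) or CD104low replicate 2 (0.0597).

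Among 15 tested output genes, known mostly from rhythms in mouse tissues, 3 were called higher and 1 lower, 26.7%, next to 23.4% of all tested genes. With the replicate block 7 were called higher and 1 lower, when 32.8% of all genes were called. DBP stands in this list too. CDKN1A, the cyclin-dependent kinase inhibitor p21, had 4094, 4036 and 2954 normalised read counts in CD104high replicates, against 2168, 1896 and 1730.3 in CD104low replicates. Its groups stood well apart (log2 fold change 0.93, SE 0.13, adjusted p = 0.00136). PPARA, a nuclear receptor of fatty acid use, had a log2 fold change of 0.60 (adjusted p = 0.00605). NOCT, a phosphatase with a strongly rhythmic transcript in mouse liver, was the one called lower, with a log2 fold change of -0.45 (adjusted p = 0.0257), a call lost without CD104high replicate 1 (0.0793), CD104high replicate 2 (0.0974) or CD104low replicate 1 (0.068).

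**Figure D4:**
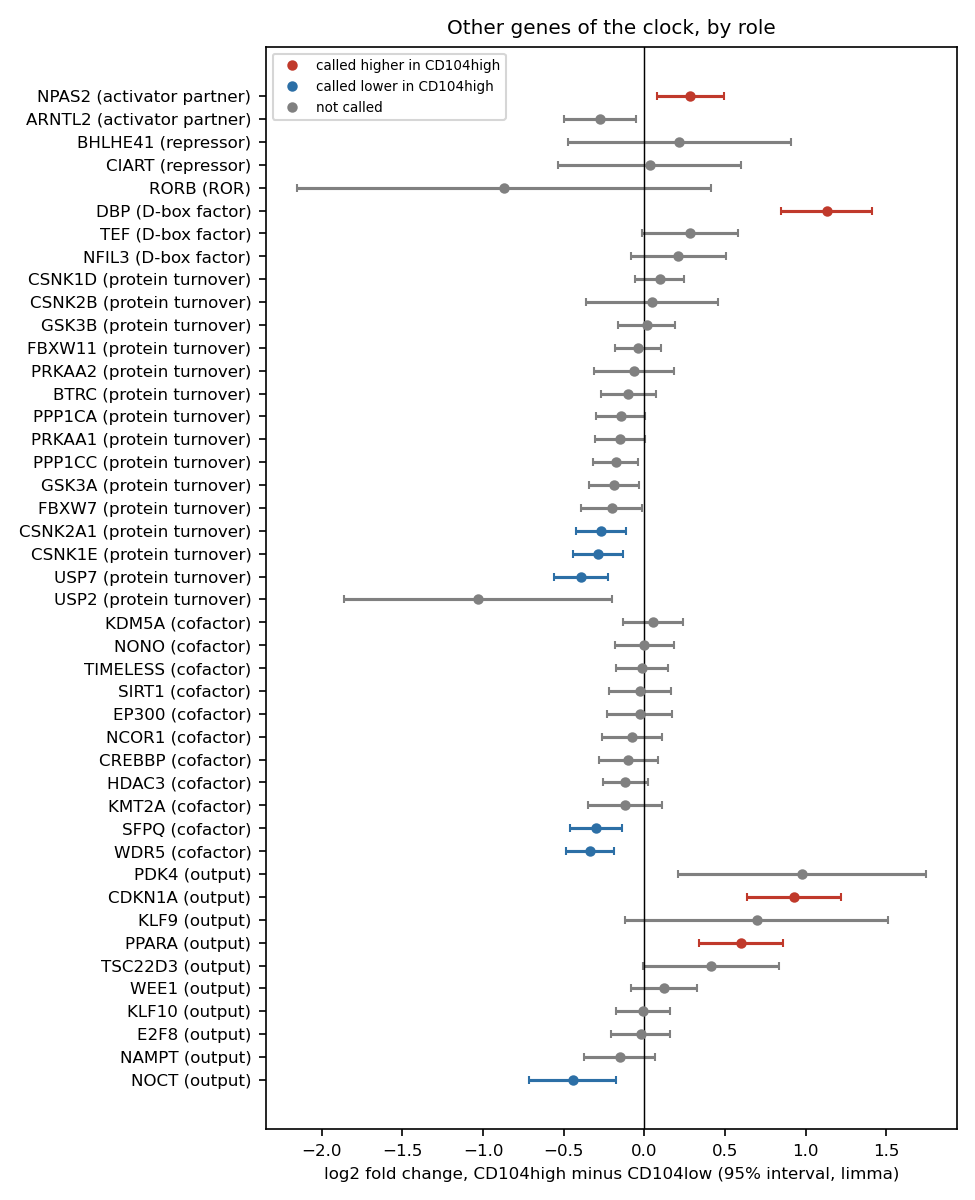
Log2 fold change, CD104high minus CD104low (x axis), with 95% limma intervals for 44 of the 46 further clock genes tested, ordered by role; red marks a gene called higher, blue one called lower and grey one not called. DBP, CDKN1A, PPARA and NPAS2 are the 4 called higher, and 6 genes of protein turnover, cofactors and output are called lower.

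Genes that followed the called clock genes most closely over the 6 libraries were sought among 7166 tested genes above the median level of 1323. For CRY1 they were LEO1, CTPS1 and UNG, with Pearson's r of 0.998, 0.998 and 0.997 on the log2 scale, and for BHLHE40 they were SORL1, NFIX and MORC4, with r of 0.997, 0.996 and 0.996. At the looser cut of 0.95, 383 genes (5.34%) were reached with CRY1 and 150 (2.09%) with BHLHE40. With 6 libraries in 2 groups, such correlations describe these libraries only. LEO1 itself was not called (log2 fold change -0.17, adjusted p = 0.113), while the other genes named here were called in the direction of their clock gene.

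The libraries held 52088604 to 56958065 recovered reads. ITGB4, the sorting marker, averaged 17659 ± 1766 normalised read counts in CD104high and 3079 ± 743 in CD104low cells (SD, n = 3 each; adjusted p = 4.1e-05), as the gate requires, and CD44 did not pass the test (adjusted p = 0.113). KMT2C, the gene of MLL3, did not either (adjusted p = 0.902). Of markers of other cells, 2 of 6 for leukocytes were in the table, CD14 and CSF1R, with a summed level of 608 to 653 normalised read counts in CD104high against 299 to 328 in CD104low libraries, and CD14 was called higher (adjusted p = 0.000359). The 2 of 4 endothelial markers summed to 60.7 to 130.4 in CD104high and 88.6 to 114 in CD104low libraries. The 5 of 5 fibroblast markers summed to 1672 to 1849 in CD104high and 1444 to 1727 in CD104low libraries. Only 3 of them passed the filter, and 0 were called. With the replicate block LUM was called higher and COL3A1 lower, when 32.8% of all genes were called. PTPRC, CD3E, LYZ, CDH5, VWF, HBB and HBA1 were not analysed here. The part of these markers in the clock gene values was not tested.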

How the data were processed

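Bulk RNA of 6 sorted samples was sequenced. The submitters' processing notes name DESeq2 1.30.1, STAR 2.4.0, FastQC and featureCounts 1.5.0, and the build hg38 (GRCh38.p13), but no role for any tool. The authors deposited a signal per gene and library, normalised read counts, from which whole reads were recovered (all values within 0.1 of a whole read, though the step of CD104high replicate 2, 0.993, is close to 1 and less certain, so count tests stand only as alternatives). They also deposited log2 fold changes, a test statistic (score) and p-values.

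Genes with a value of at least 10 in 3 of the 6 libraries were tested, 14343 of 15024, with limma 3.58.1 (R 4.3.3), with trend, on log2(value + 1), with Benjamini-Hochberg adjustment over all of them and a threshold of 0.05; adjusted p-values are from limma unless named otherwise. This scale understates the change of low genes. Alternatives were pseudocounts of 0.1 and 5, no filter, no trend, TMM, edgeR 4.0.16, DESeq2 1.42.0 and limma-voom on recovered reads, a threshold of 0.01, left-out libraries, and the replicate number as a block. Same-numbered libraries deviated together (correlations 0.17, 0.32 and 0.48 across genes). Between numbers 1 and 2 the correlations were 0.13 and 0.09, and between number 3 and the others -0.22 to -0.37. The libraries numbered 3 thus stood apart together, while a pairing within numbers 1 and 2 is less clear. This comes from the data, and no label states a pairing.

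Named were the 10 clock genes, every called gene of the other clock lists, DBP, TEF, NFIL3, NPAS2, ARNTL2, BHLHE41 and CIART, the 3 genes most like each called clock gene, and ITGB4, CD44 and KMT2C; RORB, CSNK1D, THRA and the cell type markers were added. The genes and lists were chosen with earlier results of these data known. Spans and exon lengths are from GENCODE release 29, matched without version for 14994 genes. Promoter windows are from RefSeq (GRCh38.p14). Some genes of the lists are counted but not reported by name here.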

Additional observations from a re-analysis of the deposited data

How the results depend on the processing

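CRY1 and BHLHE40 were called under every alternative run, with log2 fold changes of -0.62 to -0.55 and adjusted p of 5.04e-11 to 0.0121 for CRY1, and 0.40 to 0.53 and 1.27e-05 to 0.0325 for BHLHE40. The count of called clock genes was 2 under the replicate block and every other setting except 1, and leaving out single libraries gave 2 to 3, the third gene being PER1 without CD104high replicate 3. Over single left-out libraries PER1 ranged from 0.079 to 0.39 on the log2 scale. ARNTL, near 0, changed sign to -0.0020 with TMM factors and -0.00022 with limma-voom, and ranged from -0.070 to 0.051 over left-out libraries, as CIART did from -0.12 to 0.22. Of 65 other clock and cAMP-linked genes, 16 were called when 23.4% of all genes were, against 25 with the replicate block, when 32.8% of all genes were, and 10 at a threshold of 0.01, when 10.0% of all genes were. Leaving out single libraries gave 10 to 16, the lowest without CD104high replicate 1, when 12.7% of all genes were called. The block changed no call of the 10 clock genes. NPAS2 lost its call with no filter (adjusted p = 0.0503), TMM (0.054), edgeR with TMM (0.0504), limma-voom (0.0557) and no trend (0.118), and CSNK1E, CSNK2A1, NOCT, SFPQ and ATF3 lost theirs without the trend. The causes were not tested. PER2 had the fewest reads of the 10 clock genes, with 204 in its lowest library.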

Other observations

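Genes linked to cAMP and CREB did not move one way between the groups, both of which had forskolin. The list holds mostly known targets, a class to which PER1 also belongs, and a few regulators of CREB activity. Of 19 tested genes, 3 were called higher and 3 lower in CD104high cells, 31.6%, next to 23.4% of all tested genes. PDE4B and PDE10A, phosphodiesterases that degrade cyclic nucleotides, were higher, with log2 fold changes of 0.70 (adjusted p = 0.00265) and 0.43 (adjusted p = 0.00683), as was PPARGC1A, a coactivator of mitochondrial genes (0.95, adjusted p = 0.00774). CREM, which encodes CREB-family activators and repressors, had 1222, 1259 and 1349 normalised read counts in CD104high replicates, against 2428, 1772 and 1897 in CD104low replicates, a log2 fold change of -0.66 (adjusted p = 0.0038). DUSP1, a phosphatase of MAP kinases, was lower as well (-0.91, adjusted p = 0.00393). ATF3, a stress-induced factor, was lower too (-1.02, adjusted p = 0.0278), from low levels of 123 ± 18.9 in CD104high and 263 ± 104 normalised read counts in CD104low cells (SD, n = 3 each), and was no longer called without CD104high replicate 1 (adjusted p = 0.0891), CD104high replicate 2 (0.0953), CD104low replicate 1 (0.0924) or CD104low replicate 3 (0.0532). With the replicate block, FOS and JUNB were also called higher, which makes 5 higher and 3 lower, when 32.8% of all genes were called.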
